A study of Mus musculus with 4 samples.

Results

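The HIF1 genes described here are Hif1a, which encodes the oxygen-regulated subunit of the hypoxia-inducible factor HIF1, and 9 of its well-known targets, Slc2a1, Pdk1, Bnip3, Egln1, Egln3, Vegfa, P4ha1, Ndrg1 and Ddit4. They are 10 of 13085 genes with an FPKM value (FPKM is a fragment count corrected for transcript length and for library depth). Members were taken by gene symbol through the RefSeq identifier of each row, and all 10 were found, each in 1 row. They were chosen by their FPKM differences among these same 4 samples, which were known when the genes were proposed, so the levels and fold changes below are descriptions, without a test.

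The samples were 3T3-L1 cells, a mouse preadipocyte line that accumulates fat when given adipogenic hormones. Stable lines carried an empty FLAG vector (FLAG), FLAG-tagged CACUL1 (FLAG-CACUL1), a short hairpin RNA against luciferase (sh-Luc) or one against CACUL1 (sh-CACUL1), and CACUL1 is the protein whose part in adipocyte differentiation the study examined. All 4 lines were induced at confluence with rosiglitazone (5 µM), IBMX (0.5 mM), dexamethasone (1 µg/ml) and insulin (5 µg/ml), and total RNA was taken on day 8 of differentiation. The FLAG lines were selected with G418 and the sh lines with hygromycin B, so vector, drug and line cannot be told apart between these sets. The lines came from drug-resistant colonies after plasmid transfection, and the labels call the cells preadipocytes. Each line gave 1 sample (n = 1), so no difference could be set against a spread between replicates.

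Cells adjust to low oxygen mainly through HIF1. When oxygen is plentiful, prolyl hydroxylases of the EGLN family mark the HIF1A protein for destruction by the VHL ubiquitin ligase, and when oxygen is scarce the protein accumulates, pairs with ARNT and binds DNA at a short core. Its targets raise glucose uptake and glycolysis, hold pyruvate back from the mitochondria, remodel collagen, call in blood vessels and include EGLN enzymes that feed back on HIF1 itself. In fat tissue HIF1 is known for its activity in expanding depots. HIF1A is controlled largely at the level of protein, which was not measured here.

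The cores upstream of the start sites are shown first, because they are a feature of these genes that FPKM did not choose. The search took ACGTG and GCGTG on either strand, in the 250 bases before each RefSeq start site on mouse assembly GRCm38.p6. A window was found for 9 of the 10 genes, all but Ndrg1, and all 9 held at least 1 core. Of the genes of the FPKM tables with a window, 60.7% held one (10129 genes), and of all genes with a window 41.5% did (27025 genes). Among genes of the FPKM tables with a window of at least 60% G and C, a comparison added after the values were seen, the share was 69.1% (5497 genes), and 7 of the 9 had such a window. A core is thus common upstream of genes in general, and a match describes letters and not a bound site. Stretches from 10 bases before the first core to 10 bases after the last are given for the glucose transporter, the 2 prolyl hydroxylases, the mitochondrial proteins, the stress gene and Hif1a itself, with the cores in capitals.
Slc2a1, chr4:119108674-119108723, plus strand: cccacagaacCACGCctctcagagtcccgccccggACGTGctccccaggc
Pdk1, chr2:71873136-71873160, plus strand: gcctacatggGCGTGtctttaacca
Bnip3, chr7:138909527-138909633, minus strand: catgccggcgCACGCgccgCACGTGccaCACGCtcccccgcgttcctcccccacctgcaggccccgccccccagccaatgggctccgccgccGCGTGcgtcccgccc
Egln1, chr8:124949308-124949390, minus strand: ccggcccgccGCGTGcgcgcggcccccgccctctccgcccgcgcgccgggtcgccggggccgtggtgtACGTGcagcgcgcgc
Egln3, chr12:54204089-54204113, minus strand: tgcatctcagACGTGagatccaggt
Ddit4, chr10:59951871-59951967, minus strand: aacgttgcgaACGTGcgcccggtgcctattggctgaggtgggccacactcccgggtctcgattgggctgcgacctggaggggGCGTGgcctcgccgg
Hif1a, chr12:73907722-73907811, plus strand: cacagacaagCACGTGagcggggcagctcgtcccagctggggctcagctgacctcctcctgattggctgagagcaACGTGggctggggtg

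Bnip3 held the most cores, 5, of which 2 overlapped, on opposite strands, in the palindrome CACGTG. Hif1a held 3, and again 2 of them overlapped in CACGTG. This palindrome is also the E-box bound by other helix-loop-helix factors, so it is not particular to HIF. Slc2a1, Egln1 and Ddit4 held 2 each, and Pdk1 and Egln3 held 1 each. Vegfa had 2 windows, and its 2 cores lay before one start site while the window of the other start site held 0. Pdk1 also had 2 windows, and the second held 0. P4ha1 held 3.

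**Figure D1:**
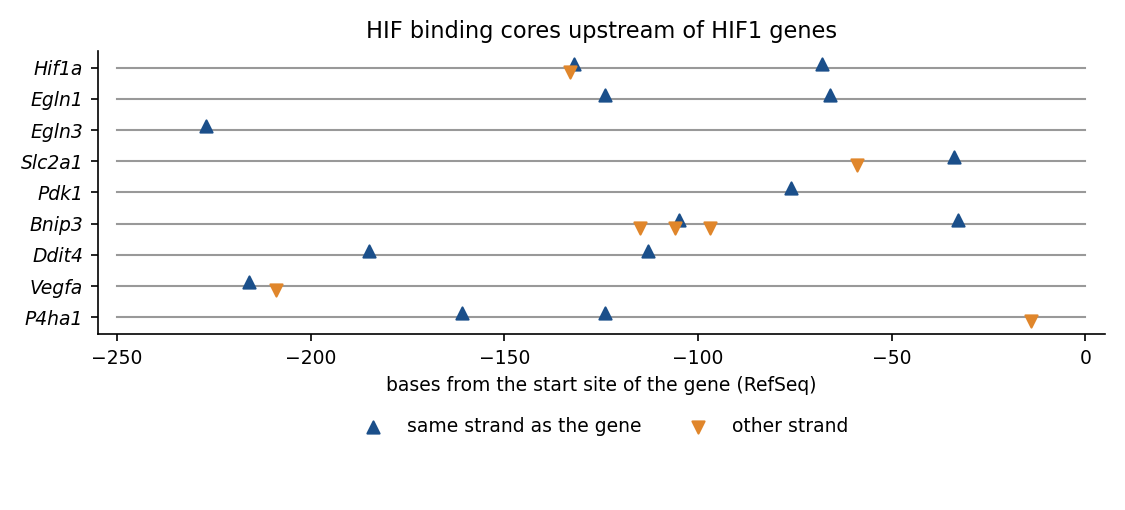
Positions of the HIF binding cores in the 250 bases before the RefSeq start site (x axis, bases from the start) for 9 genes, 1 line per gene, with upward triangles for cores on the strand of the gene and downward triangles for the other strand. Every line holds at least 1 core, and Bnip3 holds 5.

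The FLAG control library stood apart from the other 3 libraries in these genes, which bears on every comparison that uses it. FLAG had the highest FPKM of the 4 samples in 9 of the 10 genes, a place it took in 22.3% of all genes. The summed FPKM of the 10 genes was 2896 in FLAG and 754 in FLAG-CACUL1, and it was 377 in sh-Luc against 311 in sh-CACUL1. Fold changes are given on the log2(FPKM + 1) scale, which makes differences at low FPKM look smaller than they are, and a gene was counted at a difference of 2-fold or more. Between the 2 controls, 9 genes were at least 2-fold higher in FLAG than in sh-Luc, where 8.58% of all genes were, and 0 were at least 2-fold lower, where 12.4% were. The median log2 difference of the 10 genes between the controls was 3.24, against -0.18 over all genes. With 1 culture of each control, the line, its vector and the state of that culture cannot be told apart.

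Estimated depth was between 14300000 and 23900000 fragments per sample, deepest in sh-Luc. Cacul1, the targeted gene, was at 9.61 FPKM in FLAG and 11.8 in FLAG-CACUL1, and at 10.2 in sh-Luc against 5.39 in sh-CACUL1, a log2 difference of 0.27 with the FLAG-CACUL1 vector and of -0.82 with the hairpin. Both differences have the direction of the labels, but neither difference reached 2-fold. The study followed the protein itself in these lines by western blot, with antibodies to FLAG or to CACUL1. Whether this FPKM row counts RNA of the FLAG-CACUL1 insert was not tested. Intervals given below are 95% Poisson intervals from estimated fragments and cover counting error only. They do not cover error in the estimated depth.

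Hif1a itself did not share the high FLAG level of its targets. It was at 62.1 FPKM in FLAG (interval 60.3 to 64.0) and 105.9 in FLAG-CACUL1 (103 to 108), and at 70.0 in sh-Luc (68.4 to 71.5) against 23.0 in sh-CACUL1 (21.9 to 24.2). FLAG-CACUL1 was the highest sample and sh-CACUL1 the lowest, and the 2 controls lay next to each other. Hif1a was 0.76 higher on the log2 scale in FLAG-CACUL1 than in FLAG, under 2-fold, and fell by 1.56 in sh-CACUL1 against sh-Luc. With the controls exchanged, these values were 0.59 and -1.39, so the order of the lines for this gene did not turn on which control was used.

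The genes whose pattern over the 4 samples was most like that of Hif1a, by Euclidean distance of centred log2(FPKM + 1) among 9563 genes with at least 1 FPKM in every sample, were Apba1, Gem, Adamts4, Ghr and Xdh, at distances from 0.061 to 0.195. Ghr, the growth hormone receptor, was at 137 FPKM in FLAG and 239 in FLAG-CACUL1, and at 178 in sh-Luc against 51.1 in sh-CACUL1. None of the 9 targets was among these genes. With 4 samples, many genes can share a pattern, and the list is a description.

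Egln1 and Egln3 encode prolyl hydroxylases that mark HIF1A for destruction, and both are themselves induced by HIF1. Egln1 was at 146 FPKM in FLAG and 43.3 in FLAG-CACUL1, and at 14.1 in sh-Luc against 9.92 in sh-CACUL1. Egln3 was at 146 FPKM in FLAG and 30.8 in FLAG-CACUL1, and at 8.60 in sh-Luc against 7.57 in sh-CACUL1. Both genes therefore stepped down in the same order of samples, and only the lowest pair of Egln3, with intervals of 7.90 to 9.36 and 6.73 to 8.46, overlapped in counting error. In FLAG-CACUL1 against FLAG, Egln1 fell by 1.73 and Egln3 fell by 2.21 on the log2 scale. In sh-CACUL1 against sh-Luc the log2 differences were -0.47 and -0.16, under 2-fold.

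Slc2a1 encodes GLUT1, the glucose transporter of most cells under basal conditions. It was at 1063 FPKM in FLAG and 68.2 in FLAG-CACUL1, and at 60.4 in sh-Luc against 14.5 in sh-CACUL1. It ranked number 68 of all genes by FPKM in FLAG and number 1045, 1172 and 3580 in the other 3 samples, in the same order. The FLAG value was 15.4-fold above that of FLAG-CACUL1 and 17.3-fold above that of sh-Luc on the FPKM + 1 scale. FLAG-CACUL1 and sh-Luc differed by 0.17 on the log2 scale, a difference larger than counting error (65.9 to 70.6 against 58.7 to 62.1 FPKM) and far under 2-fold. Slc2a1 was also lower in sh-CACUL1 than in sh-Luc, by 1.98 on the log2 scale, so it was lower than the own control in both the line with added and the line with depleted CACUL1.

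The genes nearest to Slc2a1 in pattern were Fam57a, Ero1a, Sap30, Sdc3 and Prl2c3, at distances from 0.953 to 1.23 among the same 9563 genes. Ero1a, an oxidase of the endoplasmic reticulum that is also a known hypoxia target, was at 2673 FPKM in FLAG and 339 in FLAG-CACUL1, and at 119 in sh-Luc against 52.3 in sh-CACUL1. It belongs to the list of other hypoxia-induced genes below.

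Pdk1 encodes a kinase that inhibits pyruvate dehydrogenase. It was at 56.6 FPKM in FLAG and 23.5 in FLAG-CACUL1, and at 9.15 in sh-Luc against 8.59 in sh-CACUL1. The sh samples could not be told apart within counting error (8.63 to 9.70 and 7.95 to 9.27). Pdk1 fell by 1.24 on the log2 scale in FLAG-CACUL1 against FLAG, the smallest fall of the 8 genes at 2-fold or more there, and the log2 difference in sh-CACUL1 against sh-Luc was -0.08.

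Bnip3 encodes a mitochondrial protein of hypoxia-induced mitophagy. It was at 608 FPKM in FLAG and 148 in FLAG-CACUL1, and at 37.3 in sh-Luc against 57.1 in sh-CACUL1. It was 1 of 3 members that were lowest in sh-Luc and not in sh-CACUL1. Bnip3 fell by 2.03 on the log2 scale in FLAG-CACUL1 against FLAG, and the log2 difference in sh-CACUL1 against sh-Luc was 0.60, larger than counting error (54.2 to 60.1 against 35.5 to 39.2 FPKM) and under 2-fold, or 1.04 under median-of-ratios scaling.

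Ddit4 encodes REDD1, an inhibitor of mTORC1 signalling that many stresses induce. It was at 247 FPKM in FLAG and 90.3 in FLAG-CACUL1, and at 48.3 in sh-Luc against 49.8 in sh-CACUL1. The sh samples overlapped in counting error (46.2 to 50.5 and 47.2 to 52.6). Ddit4 fell by 1.44 on the log2 scale in FLAG-CACUL1 against FLAG, with a log2 difference of 0.04 in sh-CACUL1 against sh-Luc. Dexamethasone, which all 4 lines received at induction, is a known inducer of Ddit4. The study names insulin and no dexamethasone for the medium that followed induction. The part of dexamethasone in these day 8 values was not tested.

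Ndrg1, a stress-responsive gene widely used as a marker of hypoxia, had the widest range of the 10 as a ratio of FPKM, though on the log2(FPKM + 1) scale that of Slc2a1 was wider (log2 differences of -6.10 and -5.47 in sh-CACUL1 against FLAG). It was at 57.8 FPKM in FLAG and 6.40 in FLAG-CACUL1, and at 0.617 in sh-Luc against 0.327 in sh-CACUL1. The sh values rested on an estimated 43 and 14 fragments and their intervals overlapped (0.450 to 0.838 and 0.178 to 0.545). Ndrg1 fell by 2.99 on the log2 scale in FLAG-CACUL1 against FLAG, and the log2 difference in sh-CACUL1 against sh-Luc was -0.28.

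Vegfa encodes the main growth factor for blood vessels, and its row pooled 9 RefSeq transcripts. It was at 266 FPKM in FLAG and 51.5 in FLAG-CACUL1, and at 27.8 in sh-Luc against 117 in sh-CACUL1. Here sh-CACUL1 was the second highest sample, which was the case for no other of the 10 genes. Vegfa fell by 2.34 on the log2 scale in FLAG-CACUL1 against FLAG and was the 1 member higher by 2-fold or more in sh-CACUL1 against sh-Luc, by 2.04. Because the row joined several transcripts, no counting interval is given for it here.

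P4ha1 encodes a catalytic subunit of the prolyl hydroxylase that modifies collagen. It was at 244 FPKM in FLAG and 186 in FLAG-CACUL1, and at 101 in sh-Luc against 22.7 in sh-CACUL1. FLAG and FLAG-CACUL1 lay close together, at a log2 difference of -0.39, while P4ha1 fell by 2.10 in sh-CACUL1 against sh-Luc, the largest fall of the 10 in that comparison.

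**Figure D2:**
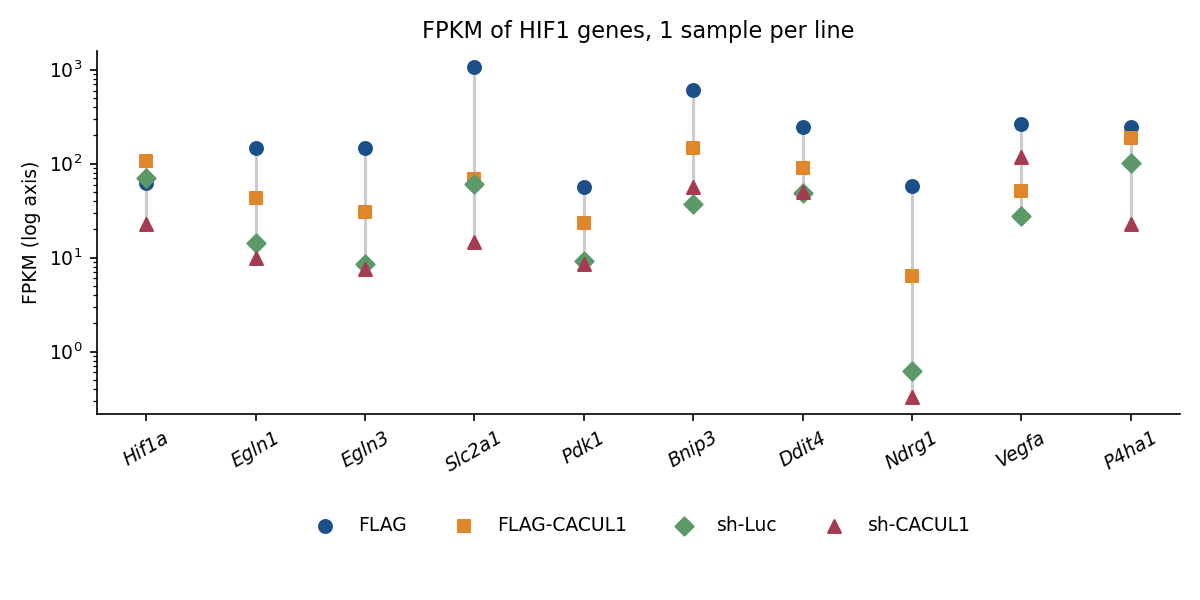
FPKM (y axis, log scale) of the 10 HIF1 genes (x axis) in the 4 samples, 1 sample per line; the grey line joins the lowest to the highest value and is not an error. FLAG is the highest point in 9 genes, and Hif1a, where FLAG-CACUL1 is highest at 105.9, is the exception.

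Counted together, 8 of the 10 genes were lower by 2-fold or more with FLAG-CACUL1 compared with FLAG, where 7.22% of all genes were, and 0 were at least 2-fold higher, where 7.51% were. The 2 others were Hif1a and P4ha1. The median log2 difference was -1.88, against 0.09 over all genes. In sh-CACUL1 against sh-Luc, 3 genes were at least 2-fold lower, Hif1a, Slc2a1 and P4ha1, beside 16.4% of all genes, and 1 was at least 2-fold higher, Vegfa, beside 4.94%. The median there was -0.22, close to the -0.30 over all genes, and it turned to 0.14 under quantile normalization and 0.09 under median-of-ratios scaling. These all-gene medians and shares moved with the scaling. When the samples were quantile-normalized, the all-gene median of the sh comparison was -0.01, and 52.1% of its calls were upward, where 23.2% were in the values as deposited.

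Against the control of the other vector, the comparison of FLAG-CACUL1 turned. Of the 10 genes, 5 (Pdk1, Bnip3, Egln1, Egln3 and Ndrg1) were at least 2-fold higher in FLAG-CACUL1 than in sh-Luc, beside 5.04% of all genes, and 0 were at least 2-fold lower, beside 4.87%. All 10 values were above 0, from 0.17 for Slc2a1 to 2.20 for Ndrg1, beside 5216 of 13085 genes. In sh-CACUL1 against FLAG all 10 were at least 2-fold lower, beside 15.4% of all genes, and 0 were at least 2-fold higher, beside 7.45%. The comparisons share samples, so these counts do not add to each other. For 9 of the 10 genes the difference of FLAG-CACUL1 had opposite signs against the 2 controls, and Hif1a was the 1 gene higher against both.

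**Figure D3:**
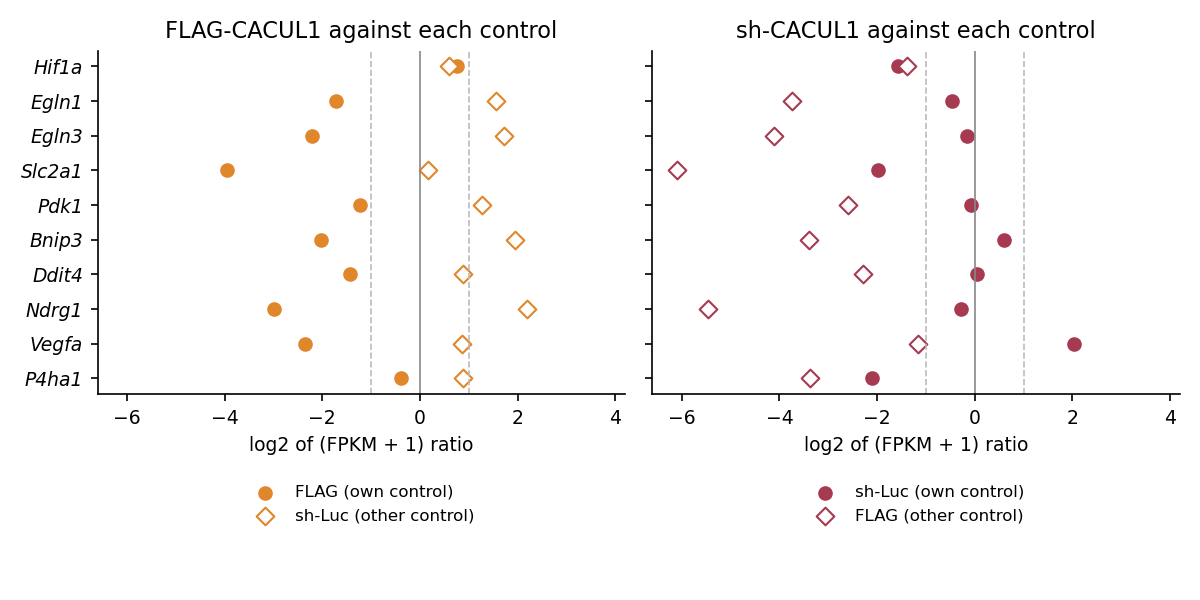
Log2 ratio of (FPKM + 1) of FLAG-CACUL1 (left) and sh-CACUL1 (right) against their own control (filled circles) and against the other control (open diamonds) for the 10 genes, with dashed lines at 2-fold. On the left, 9 circles lie below 0 and all 10 diamonds above it, and on the right all 10 diamonds lie below the lower dashed line.

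In 6 of the 10 genes the samples ran in the order FLAG, FLAG-CACUL1, sh-Luc, sh-CACUL1 from the highest to the lowest, an order held by 7.15% of all genes. The lowest sample was sh-CACUL1 in 7, and the share of all genes lowest there was not taken. Lower values in sh-CACUL1 than in sh-Luc were common, in 8987 of 13085 genes. In 8 genes FLAG was at least 2-fold above both FLAG-CACUL1 and sh-Luc, as in 4.73% of all genes. Among the members, Slc2a1 had the highest level per length in FLAG at 1063 FPKM, P4ha1 in FLAG-CACUL1 and sh-Luc at 186 and 101 FPKM, and Vegfa in sh-CACUL1 at 117 FPKM.

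The extent of differentiation moved with these comparisons, but not in the same order. Of 9 adipocyte markers measured, each of the 9 was lower by 2-fold or more with FLAG-CACUL1 compared with FLAG, beside 7.22% of all genes. Each was higher by 2-fold or more with sh-CACUL1 compared with sh-Luc, beside 4.94%. Their summed FPKM was 8438 in FLAG and 883 in FLAG-CACUL1, and it was 1688 in sh-Luc against 17626 in sh-CACUL1. Fabp4 made up much of these sums, with 4991 FPKM in FLAG and 12543 in sh-CACUL1. Of the 9 markers, 5 were highest in sh-CACUL1 and 4 in FLAG. The 2 samples with the highest marker sums were the highest and the lowest in the summed HIF1 genes. In sh-CACUL1 against FLAG, which also differ in vector and selection drug, all 10 HIF1 genes were at least 2-fold lower, beside 15.4% of all genes. Of the 9 adipocyte markers, 3 were at least 2-fold higher there and 1 at least 2-fold lower, beside 7.45% and 15.4% of all genes. Preadipocyte markers, 6 of 7 measured, summed to 286, 685, 176 and 111 FPKM in the same order of samples, and they did not move together. With FLAG-CACUL1, 4 rose and 1, Dlk1, fell by 2-fold or more, beside 7.51% and 7.22% of all genes. With sh-CACUL1, Dlk1 and Thy1 rose by 4.19 and 4.41 on the log2 scale while Pdgfra, Pdgfrb and Gata2 fell by 1.77, 2.87 and 1.55. Of all genes, 4.94% were at least 2-fold higher in that comparison and 16.4% lower. In bulk RNA, fewer cells of a type and less RNA per cell cannot be told apart. Of other cell types, 3 of 6 leukocyte markers were measured, with summed FPKM between 2.91 in sh-CACUL1 and 68.3 in FLAG-CACUL1. Most of the latter was Lyz2, at 66.5 FPKM there. Cd68, a marker of macrophages, was highest in FLAG, as the HIF1 targets were, at 16.2 FPKM beside 0.962 to 1.44 in the other samples. Csf1r stayed under 1 FPKM in every sample. The 2 endothelial markers measured also stayed under 1 FPKM in every sample. The part of these markers in the differences of the HIF1 genes was not tested.

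The genes of oxygen sensing did not share one direction. Of 11 genes of this list, 2 were lower and 1 was higher by 2-fold or more with FLAG-CACUL1 compared with FLAG, beside 7.22% and 7.51% of all genes. In sh-CACUL1 against sh-Luc 0 passed in either direction, where 16.4% of all genes were lower and 4.94% higher. Leaving out the pseudocount lets genes at low FPKM count. The numbers were then 3 lower and 2 higher with FLAG-CACUL1, beside 1583 and 2192 of 13085 genes. With sh-CACUL1 they were 3 lower and 1 higher, beside 3437 and 1362 of 13085 genes. Vhl encodes the recognition subunit of the ligase that removes HIF1A. It was at 51.3 FPKM in FLAG and 16.6 in FLAG-CACUL1, and at 14.6 in sh-Luc against 16.1 in sh-CACUL1. Vhl was thus highest in FLAG, as the targets were, but near level in the other samples, where most targets were not. Rbx1, another subunit of that ligase, was low in FLAG alone, at 19.1 FPKM beside 53.6, 53.7 and 36.4.

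Arnt, the partner of HIF1A, was at 17.2, 18.9, 22.8 and 11.4 FPKM in FLAG and FLAG-CACUL1, then sh-Luc and last sh-CACUL1. Epas1, which encodes HIF2A, was low throughout, at 2.47, 0.374, 1.09 and 0.345 FPKM, and fell by 1.34 on the log2 scale in FLAG-CACUL1 against FLAG. Egln2, the EGLN gene that hypoxia does not induce, did not have the pattern of Egln1 and Egln3, at 16.0 FPKM in FLAG and 28.8 in FLAG-CACUL1, and at 23.6 in sh-Luc against 18.0 in sh-CACUL1. Hif1an, the asparaginyl hydroxylase that inhibits HIF1, ranged from 7.80 to 11.8 FPKM. Elob, Eloc and Cul2 encode the remaining subunits of the ligase, and in the 2 comparisons of a condition with its own control their log2 differences lay between -0.27 and 0.44.

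Relatives of the targets, 11 of 13 listed, were more mixed. In FLAG-CACUL1 against FLAG, 4 were at least 2-fold lower and 2 at least 2-fold higher, beside 7.22% and 7.51% of all genes. In sh-CACUL1 against sh-Luc the counts were again 4 and 2, but beside 16.4% and 4.94% of all genes. P4ha2 and P4hb, which belong to the collagen prolyl hydroxylase with P4ha1, fell by 1.05 and 1.46 on the log2 scale in FLAG-CACUL1 against FLAG. P4ha3 went the other way there and rose by 1.87, from 0.545 to 4.65 FPKM, and in sh-CACUL1 against sh-Luc it fell by 3.54. Slc2a4 encodes GLUT4, the insulin-responsive transporter of adipocytes. It was at 41.7 FPKM in FLAG and 0.101 in FLAG-CACUL1, and at 1.13 in sh-Luc against 12.3 in sh-CACUL1, so it fell by 5.28 with FLAG-CACUL1 and rose by 2.64 with sh-CACUL1. The 2 glucose transporters therefore moved in the same direction with FLAG-CACUL1 and in opposite directions with sh-CACUL1.

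Of the other pyruvate dehydrogenase kinases, Pdk3 followed Pdk1 with 50.2, 15.3, 8.37 and 8.06 FPKM in FLAG and FLAG-CACUL1, then sh-Luc and last sh-CACUL1. Pdk2 was highest in sh-CACUL1 at 19.1 FPKM and rose by 1.02 there, and Pdk4 was highest in sh-Luc at 12.6 FPKM and fell by 2.53. Bnip3l, the close relative of Bnip3, was at 96.1, 53.6, 36.7 and 41.2 FPKM in the 4 samples, with neither own-control difference at 2-fold. Of the Ndrg genes, Ndrg3 ranged from 27.0 to 34.5 FPKM, Ndrg2 stayed at or under 1.18 FPKM, and Ndrg4 rose by 1.57 with FLAG-CACUL1 and fell by 2.00 with sh-CACUL1.

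Other ligands and receptors of the VEGF system, 6 of 9 measured, did not share the pattern of Vegfa. Vegfd was at 9.78 FPKM in FLAG and 35.4 in FLAG-CACUL1, and at 45.8 in sh-Luc against 9.21 in sh-CACUL1, so it was low in the 2 samples where Vegfa was highest, FLAG and sh-CACUL1, and it rose by 1.76 with FLAG-CACUL1 and fell by 2.20 with sh-CACUL1. Vegfc fell by 1.84 with sh-CACUL1, from 13.0 to 2.90 FPKM. The coreceptor Nrp2 was at 39.1, 55.3 and 39.4 FPKM in FLAG, FLAG-CACUL1 and sh-Luc and at 1.30 in sh-CACUL1, a fall of 4.14 on the log2 scale. Nrp1 was between 15.9 and 35.3 FPKM, Vegfb between 63.1 and 85.5 FPKM, and Pgf, at 1.77 FPKM in FLAG and at most 0.370 in the other samples, fell by 1.01 with FLAG-CACUL1.

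All 16 glycolytic HIF1 targets measured, of 17 listed, were highest in FLAG, as 22.3% of all genes were. Of these, 15 were at least 2-fold higher in FLAG than in sh-Luc, beside 8.58% of all genes. With FLAG-CACUL1 compared with FLAG, 5 were lower by 2-fold or more, beside 7.22% of all genes. Under median-of-ratios scaling 7 were, beside 1187 of 13085 genes. As deposited, all 16 values of this comparison were below 0, beside 5409 of 13085 genes, with a median of -0.84. In sh-CACUL1 against sh-Luc, 2 were at least 2-fold higher and 2 at least 2-fold lower, beside 4.94% and 16.4% of all genes. The median was 0.03. Under median-of-ratios scaling 3 were higher and 1 was lower, beside 1186 and 1016 of 13085 genes. Gapdh was at 9160 FPKM in FLAG and 1851 in FLAG-CACUL1, and at 1342 in sh-Luc against 1418 in sh-CACUL1. Hk2, the inducible hexokinase, was at 78.6, 19.9, 10.4 and 12.7 FPKM, and Pfkp, a phosphofructokinase, at 83.4, 24.5, 14.7 and 7.43 FPKM. With sh-CACUL1, Hk1 and Eno1 fell by 2.31 and 1.11 on the log2 scale while Pgk1 rose by 1.38, from 214 to 558 FPKM.

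Of 25 further hypoxia-induced genes, 20 were measured and 18 of them were highest in FLAG, as 22.3% of all genes were. In FLAG-CACUL1 against FLAG, 15 were at least 2-fold lower and 0 at least 2-fold higher, beside 7.22% and 7.51% of all genes. The median was -1.37. In FLAG against sh-Luc 15 were at least 2-fold higher, beside 8.58% of all genes, with a median of 2.47. In sh-CACUL1 against sh-Luc, 6 were lower and 1 was higher, beside 16.4% and 4.94% of all genes, and the median was -0.06. This split moved with the scaling, to 4 lower and 4 higher under both quantile normalization and median-of-ratios scaling. Of all 13085 genes, 1084 were lower and 1178 higher under quantile normalization, and 1016 lower and 1186 higher under median-of-ratios scaling. Adm, which encodes the vasodilator adrenomedullin, was at 196, 15.5, 13.1 and 0.525 FPKM and fell by 3.58 with FLAG-CACUL1 and by 3.21 with sh-CACUL1.

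Ero1a and the collagen-modifying Plod1 also fell in both comparisons, by 2.98 and 1.76 with FLAG-CACUL1 and by 1.17 and 1.64 with sh-CACUL1. Angptl4 was the 1 gene of this list that fell with FLAG-CACUL1 and rose with sh-CACUL1 by 2-fold or more in both, by 2.80 and 1.72 on the log2 scale. It encodes an inhibitor of lipoprotein lipase and is also a target of PPARγ, and its values were 379, 53.5, 96.0 and 318 FPKM. Lox, a collagen cross-linking enzyme, was at 442, 435, 302 and 29.4 FPKM, so it was near level in the FLAG lines and fell by 3.32 with sh-CACUL1, as P4ha1 did.

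**Figure D4:**
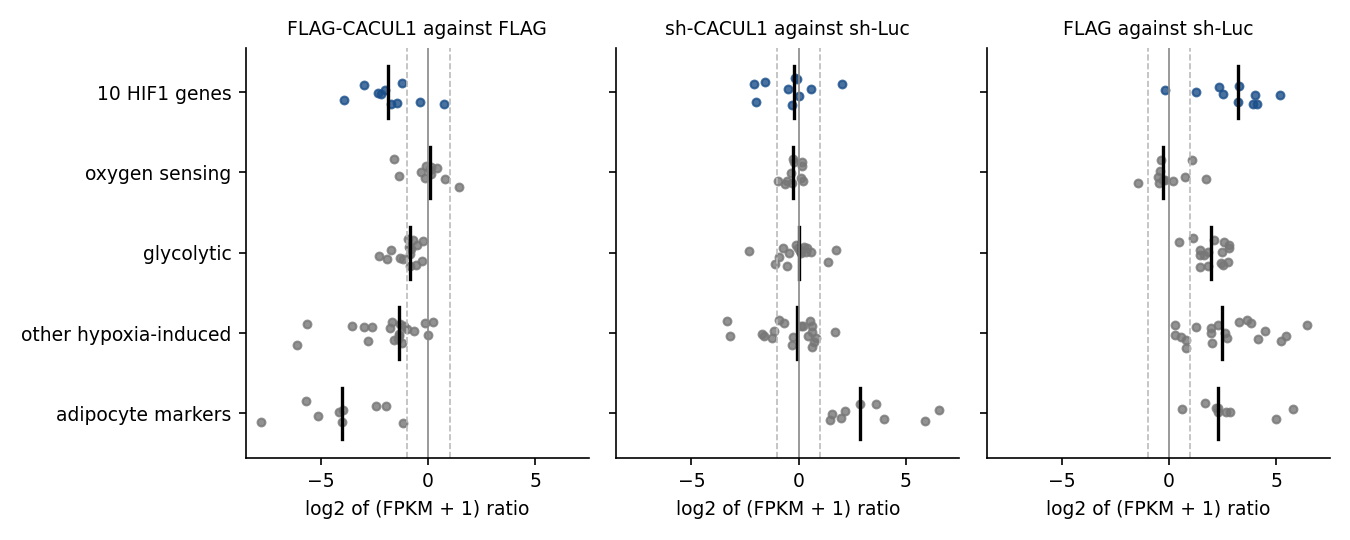
Log2 ratio of (FPKM + 1) of single genes (points, with random vertical offset) in the 10 HIF1 genes, oxygen sensing genes, glycolytic targets, other hypoxia-induced genes and adipocyte markers, for 3 comparisons; black bars are medians and dashed lines mark 2-fold. The HIF1 genes and both wider target lists lie mostly below 0 in the left panel and above 0 in the right panel, with medians of -0.22, 0.03 and -0.06 in the middle one.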

How the data were processed

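The authors deposited 1 table of FPKM values per sample, with 13110 rows named by RefSeq transcripts; per the labels, libraries were prepared and sequenced by a company. The submitters' processing notes name mm10. The aligner, the program that computed FPKM and the normalization between samples are not given in the sources used here. All 13110 rows were above 0 in every sample.

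Rows were named through the RefSeq identifiers of GENCODE M21; 196 rows had no symbol, 8 had several, and rows of a symbol were summed, leaving 13085 genes. The listed gene Ero1a carries an older symbol there and was matched by its RefSeq identifier after the values were seen. With 1 sample per group no test was possible. Differences are log2 ratios of FPKM with a pseudocount of 1, read at the 2-fold cut-off that the study used. Depth is unstated; it was estimated, within a search range of 10000000 to 33300000 fragments, from the steps of low FPKM in single-transcript rows of at least 3000 bases. Over 169 to 279 rows per sample, the mean cosine of the steps was 0.551 to 0.621, where a perfect fit gives 1. The rule that tells a spacing from its double was adjusted once, after a first version failed on simulated data. The code was tested on simulated data.

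The members and all gene lists were chosen with earlier results of these data known. Named genes are all members, every gene of the oxygen sensing, family and VEGF lists with 1 FPKM or more in a sample, and, from the glycolytic and other hypoxia-induced lists, genes at 2-fold in both own-control comparisons and the 3 largest in each comparison among genes with 1 FPKM or more in all samples. A gene that this rule names is not reported here. The 5 genes nearest in pattern to Slc2a1 and Hif1a were added by distance. Promoter windows are RefSeq's (GRCm38.p6); the table's windows also hold 50 bases after the start, which were looked at and then left out of the search. Computations used Python 3.11.15, numpy 2.4.6, scipy 1.17.1, pandas 2.3.3 and matplotlib 3.10.9. There were 8 alternatives set at the start (other pseudocounts, scalings, filter, cut-off, control and row), and scaling to Gapdh was added after seeing the data.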

Additional observations from a re-analysis of the deposited data

How the results depend on the processing

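The alternatives include 5 that changed the scale without exchanging samples (a pseudocount of 0.1, no pseudocount, quantile normalization, median-of-ratios scaling, and the highest row in place of the sum). Under these, 149 of 150 log2 differences of the 10 genes stayed on their side of the 2-fold cut-off; the exception was Bnip3 in sh-CACUL1 against sh-Luc, 1.04 under median-of-ratios scaling. With genes at 1 FPKM or more in all samples, which leaves out Ndrg1, or with a 3-fold cut-off, the counts of members stayed within 1.5 times. Exchanging the control gave 5 members in place of 8 for FLAG-CACUL1 and 10 in place of 4 for sh-CACUL1. The sign of differences at 2-fold or more turned for Slc2a1 (0.17), Pdk1 (1.27), Bnip3 (1.96), Egln1 (1.55), Egln3 (1.73), Vegfa (0.86), Ndrg1 (2.20) and Ddit4 (0.89) in FLAG-CACUL1, and for Vegfa (-1.17) in sh-CACUL1. Scaling all samples to equal Gapdh, chosen after seeing the data, gave 4 members for FLAG-CACUL1 against FLAG, 3 higher and 1 lower, and turned Pdk1 (1.00), Bnip3 (0.27), Egln1 (0.55), Egln3 (0.059) and Ddit4 (0.85) there, with Hif1a at 3.02 and P4ha1, under 2-fold as deposited, at 1.91. In FLAG against sh-Luc it gave 4 higher and 2 lower, in place of 9 and 0, and turned Pdk1 (-0.14), P4ha1 (-1.49) and Ddit4 (-0.41). That scaling moves the median of all genes to 1.86 and -2.41 in these comparisons, because Gapdh itself was high in FLAG. Under it, 10059 of 13085 genes were at least 2-fold higher and 78 lower in FLAG-CACUL1 against FLAG. In FLAG against sh-Luc 134 were higher and 10723 lower. The median of the members less that of all genes was then -1.45 and 2.94, where it was -1.97 and 3.43 as deposited.

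Over all genes, calls numbered 1928, 2788 and 2750 in FLAG-CACUL1 against FLAG, sh-CACUL1 against sh-Luc and FLAG against sh-Luc, 3775, 4799 and 4711 without a pseudocount, and 663, 936 and 994 at 3-fold. The upward share of calls was 51.0%, 23.2% and 40.8% as deposited, 44.9%, 52.1% and 54.1% after quantile normalization, and 38.3%, 53.9% and 62.8% after median-of-ratios scaling. No paired analysis was possible because each group has 1 sample and all titles carry the same number. Depth limits Ndrg1 in the sh samples, and nothing here measures variation between cultures.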

Other observations

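Genes often used to normalise RT-qPCR were read in the same samples, a list chosen after the values were seen. Gapdh, to which the study normalised its RT-qPCR, spanned 1342 to 9160 FPKM and was 2.31 lower on the log2 scale in FLAG-CACUL1 than in FLAG. Rplp0 ranged from 944 to 1213 FPKM and Tbp from 7.12 to 9.28 FPKM. Actb was lowest in sh-CACUL1 at 288 FPKM and highest in sh-Luc at 730 FPKM. Ppia ranged from 1179 to 2414 FPKM. Hprt was at 25.0 FPKM in sh-Luc and between 61.6 and 70.0 FPKM in the other samples.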
